A study of Rattus norvegicus with 6 samples.

Results

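Open-sea intergenic CG regions in repeats are stretches of DNA far from CpG islands and outside annotated genes and promoters, in which transposable elements or satellite repeats lie and in which CG methylation was listed as different between stressed and control rats. They were chosen from the annotation of the deposited region list. A region was taken when it was a CG region with an open-sea row and a repeat row, and with no row for a CpG island, island shore, promoter, exon, intron, untranslated region, transcription start site or transcription end site. Of the 5849 listed CG regions, 1075 met this rule (18.4%). The whole reduced list, with the CHG and CHH contexts (H is A, C or T), held 24869 regions.

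Methylation was profiled in brain microvascular endothelial cells sorted as CD45-/CD31+ cells from the hippocampus of adult male Sprague-Dawley rats. The CUMS group (3 samples) had undergone chronic unpredictable mild stress for 8 weeks, with a daily stressor drawn from restraint, food and water deprivation, cage tilt, wet bedding, cold swimming and continuous light. The Ctrl group (3 samples) was not stressed and was left in its home cages apart from cage cleaning. The sources used here do not say whether a sample came from 1 rat or from several, and the sorted cell type could not be checked against marker genes because the tables hold methylation only.

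In each table a region has 1 level per group, and values per sample, read counts and coverage are not given. No level or difference below therefore carries a replicate error, no test between the groups was possible, and the depth behind each level is unknown. Every region is in the list because the authors' procedure found a difference there, so that a difference exists is not a result. The paper names a mean difference of at least 10% among the criteria for its final regions. Of the 1075 regions, however, 984 differed by at least 10 percentage points, and the smallest difference was 4.66 points. What the rule did not use is described, namely direction, levels, repeat type and position.

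Cytosine methylation at CG sites is a main mark by which mammalian cells keep transposable elements silent, and most CG sites outside islands are methylated. LINE-1 (L1) elements copy themselves through RNA with their own reverse transcriptase. Endogenous retroviruses (ERVs) are flanked by long terminal repeats (LTRs), and SINEs are short elements that depend on the L1 machinery. Satellites are tandem arrays, often near centromeres. Because copies of a repeat resemble each other, short reads can be placed only where copies differ, and the levels below are uncertain to that extent. How reads with several possible origins were treated was not tested.

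The balance of directions was determined first. Of the 1075 regions, 571 were higher in CUMS (53.1%) and 504 were lower (46.9%). Over all listed CG regions the corresponding shares were 80% and 20%. The regions in repeats thus made up 12.2% of all CG regions that were higher in CUMS, but 43.2% of those that were lower.

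Regions were then counted by the size of the difference. From 10 percentage points upwards, 530 regions were higher (49.3% of the 1075) and 454 lower (42.2%), beside 57.9% and 18.2% of all listed CG regions. At 20 points or more, 282 were higher (26.2%) and 210 lower (19.5%), beside 22.5% and 8.99%. At 30 points or more, 110 were higher (10.2%) and 84 lower (7.81%), beside 5.47% and 2.91%. From 20 points upwards, differences in either direction thus took a larger share of these regions than of all CG regions. This was not particular to them. At 20 points or more, 35.3% of open-sea intergenic CG regions outside repeats were higher and 16.4% lower. In open-sea CG regions in genes that also held a repeat, the shares were 29.3% and 20.7%.

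The levels of both directions mirrored each other. For regions higher in CUMS, the median was 61.1% in Ctrl (quartiles 46.2% and 72.5%) and 84.7% in CUMS (74.3% and 89.9%). For regions lower in CUMS, it was 85.0% in Ctrl (75.4% and 90.7%) and 64.7% in CUMS (48.7% and 75.1%). In either direction, one group was near 85% and the other between 61% and 65%. The median difference was 19.9 percentage points in regions that were higher and -18.7 points in those that were lower. Averaged over all 1075 regions with each region weighted by its cytosines, the mean was 67.0% in Ctrl and 69.4% in CUMS.

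**Figure D1:**
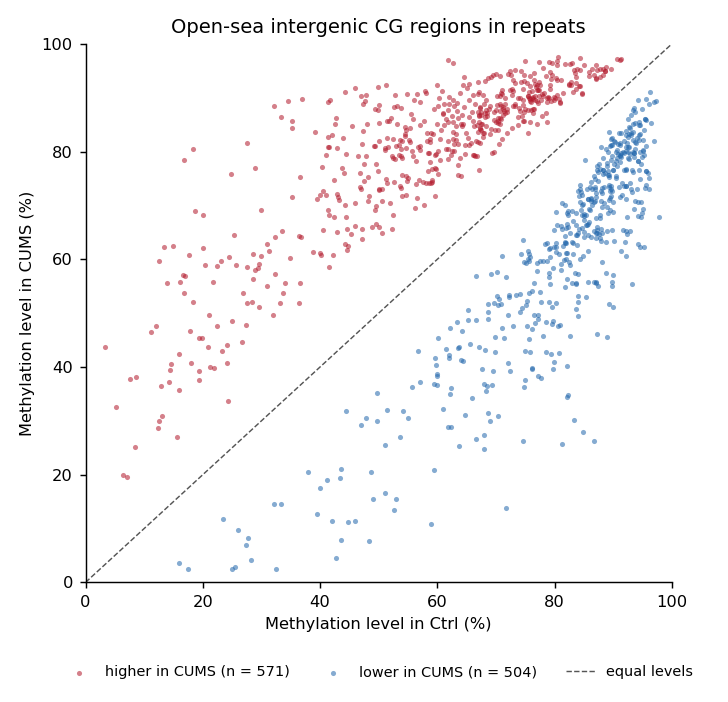
Methylation level in CUMS (vertical axis, %) against Ctrl (horizontal axis, %) for the 1075 regions, with 1 point per region and a dashed line of equal levels. The 571 regions above the line and the 504 below it both crowd towards the upper right, where one group is near 85%, and the empty band along the line reflects that only regions with a difference were listed.

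Few regions were unmethylated in either group. In Ctrl, 383 regions (35.6%) had a level of at least 80% and 41 (3.81%) a level below 20%. Over all listed CG regions, 12.3% had a Ctrl level of at least 80% and 53.6% a level below 20%. Of the 383 regions with a high Ctrl level, 331 were lower in CUMS and 52 higher. Of the 41 with a low Ctrl level, 39 were higher and 2 lower. A level near either end of the scale leaves room for a listed difference in a single direction, so these counts follow in part from the scale.

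The regions were short. Their median length was 79 bp (quartiles 62 and 100 bp) and they held a median of 8 cytosines, or 10.5 cytosines per 100 bp. Over all listed CG regions the medians were 98 bp, 17 cytosines and 17.9 cytosines per 100 bp. A total of 308 regions rested on 4 or 5 cytosines, and 50.6% of these were higher in CUMS. Of the 351 regions with 6 to 9 cytosines 51.6% were higher, of the 220 with 10 to 14 cytosines 59.1%, and of the 196 with 15 or more 53.1%. The median size of the difference lay between 18.9 and 19.7 percentage points in these classes.

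To see whether the repeat or the intergenic position goes with this balance, both neighbouring classes of the open sea were set beside it. The 402 open-sea intergenic regions outside repeats comprised 283 higher and 119 lower regions (70.4% higher). The 468 open-sea regions in genes that also held a repeat comprised 254 higher and 214 lower (54.3% higher). The share in intergenic repeats was thus 17.3 percentage points below that of intergenic regions outside repeats, and differed by -1.16 points from that of repeats in genes. The latter difference changed sign among regions with at least 10 cytosines (0.845 points). 

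Levels showed the same order. The median Ctrl level was 72.5% in intergenic repeats, 68.4% in repeats within genes and 45.2% in intergenic regions outside repeats. In the last class 16.2% of regions had a Ctrl level below 20%, compared with 3.81% in intergenic repeats and 4.49% in repeats within genes. Cytosine density was similar in the 3 classes, at 10.5, 11.1 and 10.96 cytosines per 100 bp in the same order, and so was the median size of the difference (19.3, 19.99 and 20.2 points).

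**Figure D2:**
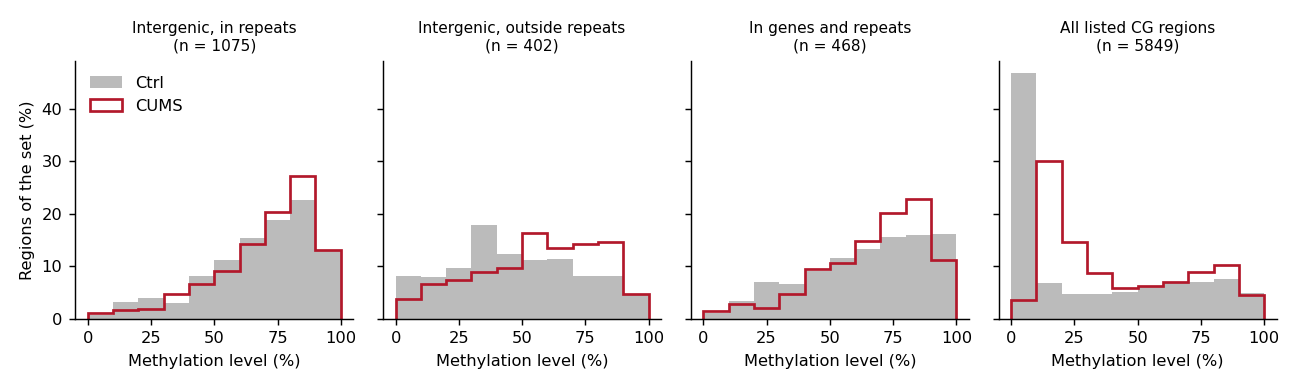
Share of regions (vertical axis, %) by methylation level in bins of 10% (horizontal axis), with Ctrl as grey bars and CUMS as a red outline, for the intergenic regions in repeats, both neighbouring open-sea classes and all listed CG regions. Regions in repeats lie at high levels in both groups, whereas the listed CG regions as a whole pile up at low Ctrl levels.

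The open-sea rows of the annotation also give the stretch of open sea around each region. The median width of that stretch was 918 kb for intergenic regions in repeats (quartiles 304 and 2232 kb), 284 kb for intergenic regions outside repeats and 314 kb for repeats in genes. A total of 507 regions (47.2%) lay in a stretch of at least 1000 kb. Within these wide stretches 257 regions were higher and 250 lower in CUMS (50.7% higher), compared with 190 and 150 in stretches of 250 to 1000 kb (55.9%) and 124 and 104 in narrower ones (54.4%). The median width was 1338 kb for regions in L1_Rn or L1_Rat1, the most frequent L1 elements here, 591 kb for regions in LTR elements and 220 kb for regions in SINEs, the kinds for which it was computed.

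The type of repeat was examined next. The 1075 regions carried 1193 repeat annotations from 171 named elements and 19 classes. A single element name was given for 973 regions, and 1004 regions belonged to a single class. A region with several classes was counted in each. L1 elements held 602 regions (56.0%), followed by the class that the annotation calls Unknown with 161, ERVK elements with 153, ERV1 elements with 59, satellites with 39 and ERVL-MaLR elements with 31. Among SINEs, B4 elements held 23 regions, B2 elements 20 and ID elements 17. In repeats within genes, L1 elements accounted for 42.9% of regions, ERVK elements for 22.0% and satellites for 0.641%, compared with 14.2% and 3.63% for the last 2 classes in intergenic repeats.

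These counts were not equally balanced between classes. L1 regions were nearly balanced, with 310 higher and 292 lower (51.5% higher), and so were ERVK regions with 78 and 75 (51.0%). ERV1 regions were more often higher, with 42 higher and 17 lower (71.2%), and had this excess also in genes (12 and 7). Of the 161 regions of Unknown class, 92 were higher and 69 lower. Satellite regions were more often lower, with 17 higher and 22 lower (43.6% higher). This count rests on a single stretch of chromosome 2, and without it 56.7% of the remaining 30 satellite regions were higher. In genes, ERVK regions comprised 36 higher and 67 lower regions (35.0% higher).

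**Figure D3:**
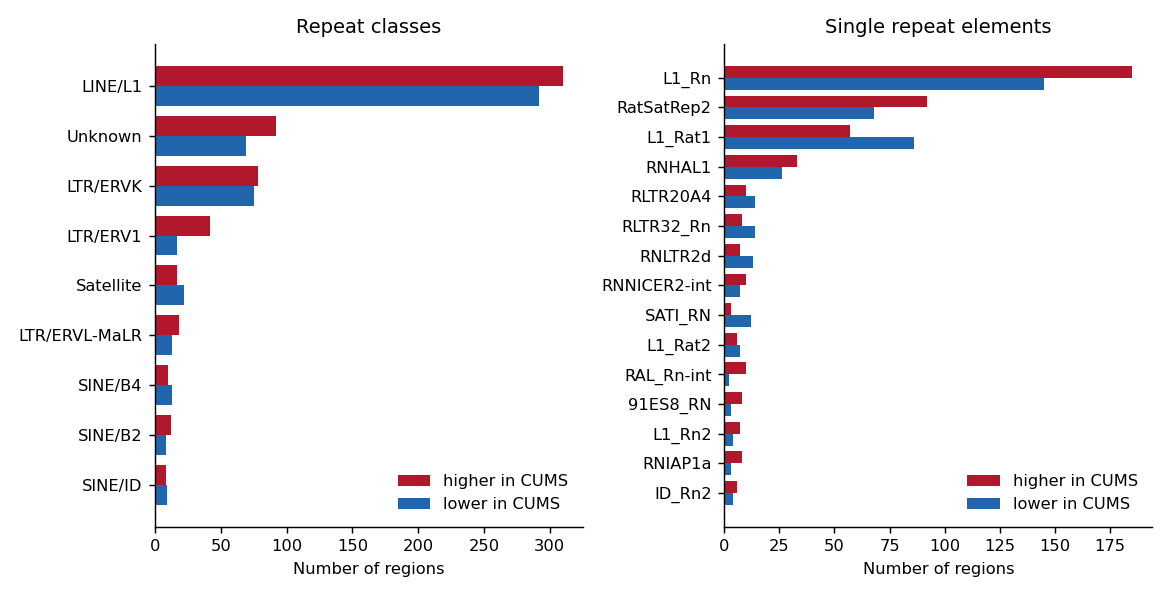
Number of regions higher (red) and lower (blue) in CUMS for the repeat classes (left) and the single repeat elements (right) that hold at least 10 regions each. L1_Rn has more regions higher than lower (185 and 145), whereas L1_Rat1 has fewer (57 and 86).

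Within the L1 class, the elements did not share 1 balance. L1_Rn, the most frequent name, held 330 regions, of which 185 were higher and 145 lower (56.1% higher). L1_Rat1 held 143 regions, of which 57 were higher and 86 lower (39.9% higher). The median Ctrl level was 82.2% in L1_Rat1 and 74.7% in L1_Rn, and the median CUMS levels were 78.3% and 78.9%. These medians pool both directions and so follow in part from the balance. Among higher regions, the Ctrl and CUMS medians were 67.9% and 87.8% in L1_Rat1, and 62.6% and 85.1% in L1_Rn. Among lower regions, they were 88.7% and 71.5% in L1_Rat1, and 87.1% and 68.4% in L1_Rn. RNHAL1, a shorter L1-related element, held 59 regions with 33 higher and 26 lower. Within genes the contrast between both elements was smaller, since 57.1% of 49 L1_Rat1 regions and 59.3% of 91 L1_Rn regions were higher.

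Most L1 copies in a genome have lost their 5′ part, where the promoter of the element lies. Each repeat annotation gives a span on the consensus sequence of its element, counted from the 5′ end. Whether an annotation is a whole copy or a piece of one is not stated, and the span does not tell where within it the region lies. Of the 332 L1_Rn annotations, 251 (75.6%) began within the first 1000 positions of the consensus, whose highest annotated position was 7329. A total of 185 annotations (55.7%) had ended by position 1500, and 97 spanned at least 5000 bp. For RNHAL1, 56 of 60 annotations (93.3%) began within the first 1000 positions, and for L1_Rat1 50 of 143 (35.0%). The same shares over all annotations of these elements in the genome were not determined. Whether the listed regions favour copies with a 5′ part is therefore unknown.

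**Figure D4:**
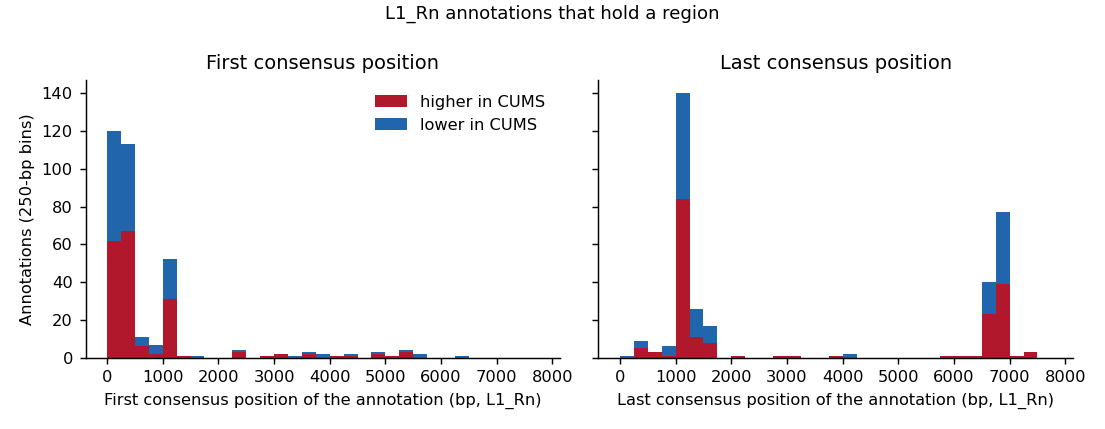
First (left) and last (right) position on the L1_Rn consensus of the 332 annotations that hold a region, in 250-bp bins, stacked by direction. Starts crowd near the 5′ end, and ends fall into a group between 1000 and 1500 bp and a group near the 3′ end, with both directions in each.

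Both directions occurred in each kind of L1_Rn annotation. Annotations that began within the first 1000 positions and ended by position 1500 held 184 regions, of which 104 were higher and 80 lower (56.5% higher). Their median Ctrl level was 70.6%. Those that began there and extended past position 6000 held 44 regions, of which 22 were higher and 22 lower, at a median Ctrl level of 77.1%. Those that began after position 1000 held 81 regions, of which 48 were higher (59.3%), and their cytosine density was lower (8.20 per 100 bp, compared with 11.6 in those that began earlier).

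RatSatRep2, the element behind 160 of the 161 regions of Unknown class, came in recurring pieces. The span from position 3600 to 4820 occurred in 40 regions and the span from 2621 to 3524 in 33. Regions of the first piece had a median Ctrl level of 83.8%, with 23 higher and 17 lower in CUMS. Regions of the second piece had a median Ctrl level of 59.9%, with 24 higher and 9 lower. All pieces that began between 2600 and 2700 and ended by 3700 held 109 regions, at a median Ctrl level of 71.3%. Of these regions, 65 were higher (59.6%), compared with 72.7% of the 33. The Ctrl medians of the pieces pool both directions and so follow in part from the balance.

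Among LTR elements, several names of the ERVK class leaned to lower levels in CUMS. RLTR32_Rn held 8 higher and 14 lower regions, RNLTR2d 7 and 13, and RLTR20A4 10 and 14. RLTR32_Rn and RLTR20A4 were dense in CG sites, with 19.6 and 18.7 cytosines per 100 bp. Regions in names beginning with RNIAP, the rat members of the intracisternal A particles, comprised 13 higher and 7 lower, but the names differed. RNIAP1a held 8 higher and 3 lower and RNIAP1aLTR 4 and 0, whereas RNIAP1b held 1 and 4 and RNIAP1bLTR 1 and 0. A region on chromosome 13 (27524208 to 27524304) held both RNIAP1a and RNIAP1aLTR and is counted under each name. The RNIAP regions together were highly methylated, with a median of 83.9% in Ctrl and 89.2% in CUMS. Their median difference was 11.9 points in size, compared with 19.3 points over all 1075 regions, but it was 24.1 points in RNIAP1b. These are small numbers.

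The RAL_Rn-int element of the ERV1 class held 12 regions, of which 10 were higher and 2 lower. Its median level was 41.5% in Ctrl and 71.6% in CUMS, and the Ctrl median was the lowest among the 15 elements with at least 10 regions. On chromosome 5, 3 of its regions were neighbours. CUMS had 19.7% and Ctrl 7.14% at 25161801 to 25161884, 44.7% and 26.6% at 25161958 to 25162056, and 79.1% and 66.4% at 25162306 to 25162384. All of these were higher in CUMS, and the level climbed along the element in both groups. On chromosome 4, neighbouring regions at 84282236 to 84282330 and at 84282382 to 84282821 had 82.7% in CUMS against 41.4% in Ctrl and 53.8% against 16.8%. The largest positive difference (CUMS minus Ctrl) of the ERV1 class was in the same element on chromosome X (36516911 to 36517063), where CUMS had 89.5% and Ctrl 41.6%.

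Satellite regions formed the groups of neighbours with the most regions. SATI_RN is a satellite repeat, and 9 of its regions lay within 55.2 kb on chromosome 2 (3862919 to 3918155). Every one was lower in CUMS. Their levels ranged from 47.0% to 75.03% in Ctrl and from 29.2% to 46.8% in CUMS. These are group levels of regions listed for a difference, so the separation of both ranges is not a result. The last 4 regions of this stretch, each with at least 17 cytosines, were 46.8% in CUMS and 64.3% in Ctrl (3914017 to 3914175), 38.7% and 59.9% (3914566 to 3914756), 43.5% and 63.6% (3917069 to 3917298), and 40.4% and 59.9% (3917925 to 3918155). Regions of a tandem array share sequence and libraries, so the 9 regions are not independent observations. Elsewhere, SATI_RN held 6 regions, of which 3 were higher and 3 lower, and their median Ctrl level was 75.2%.

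A second array showed both directions. IMPB_02, also classed as a satellite, held 7 regions within 18.5 kb on chromosome 4 (147668786 to 147687322). The first 2, at 147668786 to 147668968 and 147670909 to 147670980, were higher in CUMS, with 60.8% against 40.2% and 49.7% against 32.0%. The other 5 were lower. The last of these, at 147687225 to 147687322, had 36.8% in CUMS and 68.0% in Ctrl. The satellite 91ES8_RN held 11 regions on chromosomes 1, 3 and X, of which 8 were higher and 3 lower.

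**Figure D5:**
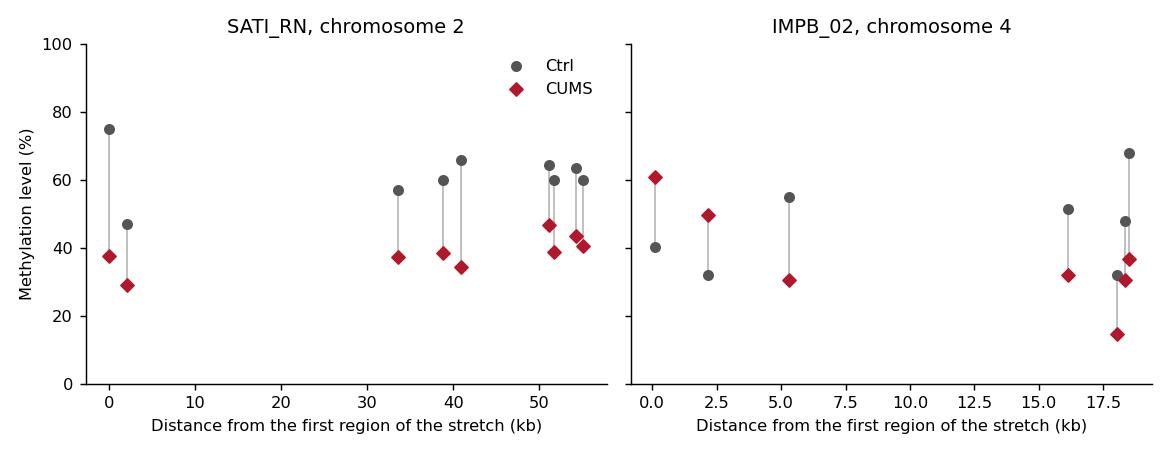
Methylation level (vertical axis, %) of the regions in the SATI_RN stretch of chromosome 2 (left, 9 regions) and the IMPB_02 stretch of chromosome 4 (right, 7 regions) by distance from the first region (horizontal axis, kb), with Ctrl as grey circles and CUMS as red diamonds joined by a line for each region. All regions of the first stretch are lower in CUMS, whereas 2 regions of the second are higher and 5 lower.

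Regions with the largest differences came from several repeat types. The largest positive difference was in an L1_Rn copy on chromosome 1 (141966044 to 141966138), where CUMS had 80.5% and Ctrl 18.3%. An ID_Rn2 SINE on chromosome 11 (51448718 to 51448816) had 78.5% and 16.9%. The remaining 3 of the 5 largest were in RMER12 on chromosome 4 (141739003 to 141739087), with 88.5% and 32.2%, in RSINE1 on chromosome 3 (125738206 to 125738284), with 89.5% and 34.6%, and in ID_Rn1 on chromosome 4 (153852752 to 153852827), with 81.7% and 27.5%. The last lay 37.5 kb from the nearest listed region of a gene, Cecr2. Each held at most 11 cytosines.

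The largest negative difference was in an RNLTR2d element on chromosome Y (6319057 to 6319126), where CUMS had 26.3% and Ctrl 86.8%. An L1_Rat3 copy on chromosome 10 (11977621 to 11977714) had 13.8% and 71.7%. The next were in RLTR20A4 and RLTR28 on chromosome 8 (57696581 to 57696678), with 28.0% and 84.9%, in RatSatRep2 on chromosome 17 (79854052 to 79854137), with 25.7% and 81.2%, and in L1_Rat1 on chromosome 7 (78690921 to 78691015), with 30.2% and 83.3%. None of the 5 had a listed region of a gene within 50 kb. They held at most 10 cytosines each.

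The regions with the most cytosines are given next. The region with the most cytosines was a B3 SINE on chromosome 12 (43307651 to 43308077, 45 cytosines), where CUMS had 40.8% and Ctrl 17.9%. An L1_Rn copy on chromosome 20 (273384 to 273533, 41 cytosines) had 59.8% and 12.6%. A region with RNNICER2-int and NICER2_Rn on chromosome 2 (179571111 to 179571508, 39 cytosines) had 73.0% and 46.9%. Among regions lower in CUMS, a MIR element on chromosome 6 (48169616 to 48169872, 44 cytosines) had 39.7% and 67.6%. An RLTR20A4 element on chromosome 3 (57942243 to 57942371, 42 cytosines) had 59.7% and 77.5%. A region on chromosome 8 (57621217 to 57621429, 41 cytosines) with RLTR20A4 and a B4 element had 30.0% and 69.0%.

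Other classes are shown by their largest positive and negative differences. Among ERVL-MaLR elements, an MTE2b copy on chromosome 2 (66863622 to 66863684) had 43.7% in CUMS and 3.37% in Ctrl, and an MTD copy on chromosome 12 (30093212 to 30093267) had 42.8% and 75.8%. Among B2 elements, a region on chromosome 2 (115043646 to 115043707), which also held RLTR32_Rn, had 92.4% and 51.3%. A region on chromosome 4 (155875691 to 155875781), which also held an ID element, had 38.4% and 77.2%. The largest negative difference in B4 elements was in RSINE1 on chromosome 12 (36957804 to 36957889), with 27.3% and 67.9%. That in ERV1 elements was in NICER2_Rn on chromosome 15 (72593423 to 72593502), with 42.4% and 79.3%. In the class Unknown, a region on chromosome 2 (146002098 to 146002197), which also held L1_Rat1, had 89.8% and 36.9%. Among satellites, the largest positive difference was in 91ES8_RN on chromosome 3 (3882197 to 3882305), with 82.6% and 43.9%, and the largest negative one in a region with RatSatRep1 and L1_Rat1 on chromosome 1 (77761415 to 77761508), with 24.8% and 67.9%.

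The regions were unevenly spread over chromosomes. They made up 18.4% of listed CG regions in all, between 5.98% on chromosome 12 and 29.8% on chromosome 2 among the autosomes, and 33.6% on chromosome X (116 of 345). On the autosomes, 45.5% (chromosome 12) to 68.6% (chromosome 18) were higher in CUMS. More regions were higher than lower on 13 autosomes, fewer on 5, and the numbers were equal on 2. On chromosome X, 65 were higher and 51 lower.

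Chromosome Y stood apart. All 8 of its listed CG regions were open-sea intergenic regions in repeats, and all 8 were lower in CUMS. Apart from the RNLTR2d region above, the differences ranged from -12.6 to -19.8 percentage points. The 2 L1_Rn regions, neighbours at 13961269 to 13961323 and 13961435 to 13961503, had 81.1% in CUMS and 95.7% in Ctrl, and 73.0% and 86.9%. The 2 RNHAL1 regions had 74.2% and 92.9% (204410 to 204480) and 61.1% and 80.9% (6508050 to 6508122).

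Most regions were solitary. A neighbouring region of the same class lay within 10 kb for 82 regions (7.63%), in 37 groups of at most 4 regions. Of the 45 pairs of neighbours within that distance, 35 had the same direction (77.8%). Of the 22 pairs within 1 kb it was 20 (90.9%), and of the 102 pairs within 100 kb it was 68 (66.7%). Over all pairs of the 1075 regions, wherever they lay, 50.1% had the same direction. Without the SATI_RN stretch of chromosome 2, it was 29 of 39 pairs within 10 kb (74.4%), 18 of 20 within 1 kb and 60 of 94 within 100 kb (63.8%). All regions were measured in the same libraries.

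Finally, cytosines outside the CG context were examined on the same DNA. CHG regions overlapped 8 of the 1075 regions by at least 1 bp (0.744%, beside 1.93% of all listed CG regions), and the directions were the same in 5 of the 8 pairs. CHH regions of the reduced list overlapped 1 region (0.0930%, beside 0.513%), and those of the full list overlapped 20 (1.86%, beside 4.15%), with the same direction in 12 of 21 pairs. The median level of the group with the higher value was 5.05% in these CHG regions and 3.75% in the CHH regions of the full list. The region with overlaps in each context and list lay on chromosome 1 (55252240 to 55252842) and was higher in CUMS in the CHG and CHH regions as well. It held only 4 CG cytosines in 603 bp. The CHG region over it had 5.82% in CUMS and 0.122% in Ctrl. Conversely, a region on chromosome 3 (104794345 to 104794404) was lower in CUMS in the CG context, whereas the CHG region over it (104794295 to 104794415) had 30.5% in CUMS and 9.55% in Ctrl.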

How the data were processed

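Hippocampal endothelial cells of 3 CUMS and 3 Ctrl samples were profiled after enzymatic conversion with TET2 and APOBEC3A, in which cytosines left unconverted are read as methylated. Per the submitters' processing notes and the study's methods, the authors cleaned reads with fastp (0.20.0), checked them with FastQC (0.11.3), mapped them with Bismark (0.16.3, with Bowtie2) to mRatBN7.2, and called regions with DSS. Levels were deposited by the authors as a fraction from 0 to 1, 1 per group and region, and were multiplied to percent here. The number of cytosines per region is also the authors' value. Their columns of differences and region scores (areaStat) were not used, and differences were recomputed as CUMS minus Ctrl in percentage points. The gene body profile was not used here.

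Rows of the annotation were joined by chromosome, start, end and context with pandas (2.3.3) in Python (3.11.15). Repeat names, classes and consensus spans were read from the repeat rows. Membership, grouping and overlap steps were checked on simulated data. Overlap meant at least 1 bp, and neighbours lay within 10 kb. The regions and the lists described were chosen with earlier results of these data known.

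Named regions were the 5 largest positive and 5 largest negative differences, the 3 with the most cytosines in each direction, the largest difference in each direction of each repeat class with at least 10 regions, and the 3 largest groups of neighbours, on placed chromosomes. Regions of the SATI_RN, IMPB_02, RAL_Rn-int, 91ES8_RN and chromosome Y sets beyond these, regions overlapped by CHG or CHH regions, elements named in groups, and the limits on consensus positions were chosen after their values were seen. Genes were named where a listed gene region lay within 50 kb. The permutation test planned for values per sample could not be made, and no p-value is given. DNA sequence of these regions is not shown, because the genome of the matching assembly was not used here.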

Additional observations from a re-analysis of the deposited data

How the results depend on the processing

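No paired analysis was possible because levels are given per group and not per sample, and no sample could be left out either. Alternatives gave 110 values for 20 results, of which 90 kept to the reported value, 17 moved and 3 reversed. Counts change by construction under a tighter or looser limit, so this tally does not measure robustness. A count, level or difference was taken as moved when it changed by over 1.5 times, a share when it left the 95% binomial (Wilson) interval of the main share, and a share that crossed 50% as reversed. A minimum of 20 percentage points left 282 higher and 210 lower regions (57.3% higher), a minimum of 10 cytosines 234 and 182 (56.2%), and a minimum of 100 bp 161 and 111 (59.2%). All open-sea intergenic regions, with or without a repeat, were 57.8% higher. Median levels stayed within 1.5 times under every alternative run for them. With at least 10 cytosines, ERVK regions were 48.2% higher in place of 51.0%, ERVL-MaLR regions 75% in place of 58.1%, and the difference from repeats in genes was 0.845 points in place of -1.16. Without the chromosome 2 stretch, an alternative chosen after the data were seen, satellite regions were 56.7% higher. CHG regions lay within 1 kb of 28 regions. CHH regions of the reduced list covered at least 50% of 0 regions and lay within 1 kb of 13, and those of the full list overlapped 20. Neighbours within 1 kb were found for 41 regions and within 100 kb for 182. Leaving out chromosome Y, and the chromosome 2 stretch from the pairs of neighbours, was also chosen after the data were seen. Regions with only simple or low-complexity repeats did not occur, so leaving them out changed nothing. The cause of these shifts was not tested. The unknown coverage of each region limits every value, most of all in regions of 4 or 5 cytosines. For sequencing coverage, the paper gives only a range over all samples.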

Other observations

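Listed regions in repeats with names of older families had lower median levels than those in the frequent rat L1 elements. Only listed regions were seen, so the methylation of these families as a whole is unknown. Regions in 12 elements with names beginning Lx, an L1 lineage of rodents, numbered 26, of which 13 were higher and 13 lower in CUMS. Their median level was 52.8% in Ctrl and 47.4% in CUMS. Regions in elements with names beginning L1M, L1 families shared by mammals, numbered 11, of which 7 were higher and 4 lower, with medians of 41.5% and 55.7%. In names beginning L1_R the medians were 75.6% and 78.3% over 505 regions, of which 258 were higher and 247 lower. Less frequent L1_R names also had lower Ctrl medians. These were 67.2% in L1_Rat2 (13 regions), 60.4% in L1_Rn2 (11), 49.4% in L1_Rat4 (5) and 46.0% in L1_Rat3 (3). The median size of the difference was 22.9 percentage points for Lx, 26.7 for L1M and 18.3 for L1_R names. In elements with names beginning ORR1 and MT, the medians in Ctrl were 60.9% and 49.0%. All of these belong to the ERVL-MaLR class except MT2A, which is classed as ERVL.

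BC1_Rn, the repeat named after the BC1 RNA of rodent neurons, held 5 regions on 5 chromosomes, of which 4 were higher and 1 was lower in CUMS. The levels were 94.0% in CUMS and 70.7% in Ctrl on chromosome 4 (158344088 to 158344244), 77.1% and 40.3% on chromosome 5 (131237247 to 131237306), 90.0% and 73.8% on chromosome 9 (37365825 to 37365875), and 72.2% and 42.9% on chromosome 12 (4024122 to 4024195). The chromosome 5 region also held an L1_Rn2 element. On chromosome 10 (81411935 to 81412024) the levels were 72.7% in CUMS and 89.9% in Ctrl. These elements were chosen after their values were seen.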
